A study of Mus musculus with 6 samples.

Results

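Jarid2, the gene that encodes the protein immunoprecipitated in this study, was examined for contacts between JARID2 and RNA made from its own locus. The members were all listed contact sites on chromosome 13 between 44.82 and 45.02 Mb of the mm9 build, with the plus strand read as the sense strand of Jarid2 and the minus strand kept apart. The bounds are positions, but the locus and its highly scored minus-strand cluster were picked out with the lists already known, so the height of the cluster's scores is a description. The window held 129 of 23380 sites in the list for untreated cells, 122 on the plus strand and 7 on the minus strand. It held 15 of 5348 sites in the list for cells given retinoic acid, 11 on the plus strand and 4 on the minus strand.

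All samples were E14 cells, a wild-type line of mouse embryonic stem cells grown in serum with the cytokine LIF, and all were immunoprecipitated with the same in-house JARID2 antibody. The untreated group comprised 3 libraries, and the other group comprised 3 libraries of cells differentiated with 2 µM retinoic acid for 24 h. Every culture took up 4-thiouridine (500 µM, 2 h) and received 400 mJ/cm2 of ultraviolet light of 312 nm. In this method, PAR-CLIP, the photoreactive uridine analogue ties RNA to the protein it touches, and the RNA recovered with the protein is sequenced. The authors deposited 1 list per condition that pools its 3 libraries, so n is 1 list per condition, no value has a replicate error, and intervals (95%, exact binomial for shares and exact conditional for odds ratios) cover counting error only. Each site carries a whole-number score of which no source used here says what it counts, and the read depth is unknown. The labelled cell type could not be checked against marker genes, whose mm9 positions are not in the sources used here.

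JARID2 belongs to the Jumonji family of proteins but is known to lack the histone demethylase activity of its relatives. It is an accessory subunit of Polycomb repressive complex 2 (PRC2), which trimethylates histone H3 in repressed chromatin, and in embryonic stem cells it takes part in bringing PRC2 to developmental genes. JARID2 and other PRC2 subunits are known to bind RNA, including unspliced transcripts still near the chromatin. In the reference annotation Jarid2 lies on the plus strand, and the next gene after it is Dtnbp1, a subunit of a complex that makes lysosome-related organelles, on the minus strand.

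By number of listed sites, the sense strand of Jarid2 ranked high in both lists, with 122 sites in untreated cells and 11 after retinoic acid. Among 200-kb windows of either strand, only 3 held more untreated sites than the 122 of the Jarid2 plus strand, out of 5238 windows with a site. The minus strand of chromosome 19 from 5620000 to 5820000 also held 122. In the treated list, with its 11 sites, the Jarid2 plus strand ranked 22 of 2612. The windows were placed so that the Jarid2 window was one of them, while other loci can be split between windows, which can favour its rank. The Jarid2 window held 20.7% (17.5 to 24.3) of the untreated sites that chromosome 13 held on its plus strand, and 9.57% (4.87 to 16.5) of the treated ones. The windows of 200 kb directly before and directly after it held 0 sites on both strands in both lists. The nearest plus-strand sites outside it ended at 41056053 (untreated) and 41035331 (treated) on one side, 3764 and 3785 kb away. On the other side both lists had a site 234 kb past the window, from 45253729 to 45253738 untreated with a score of 117 and from 45253734 to 45253742 treated with a score of 103. The sites of the window thus formed an isolated block, which ran from 44826790 to 45016803 in the untreated list, a span of 190 kb.

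**Figure D1:**
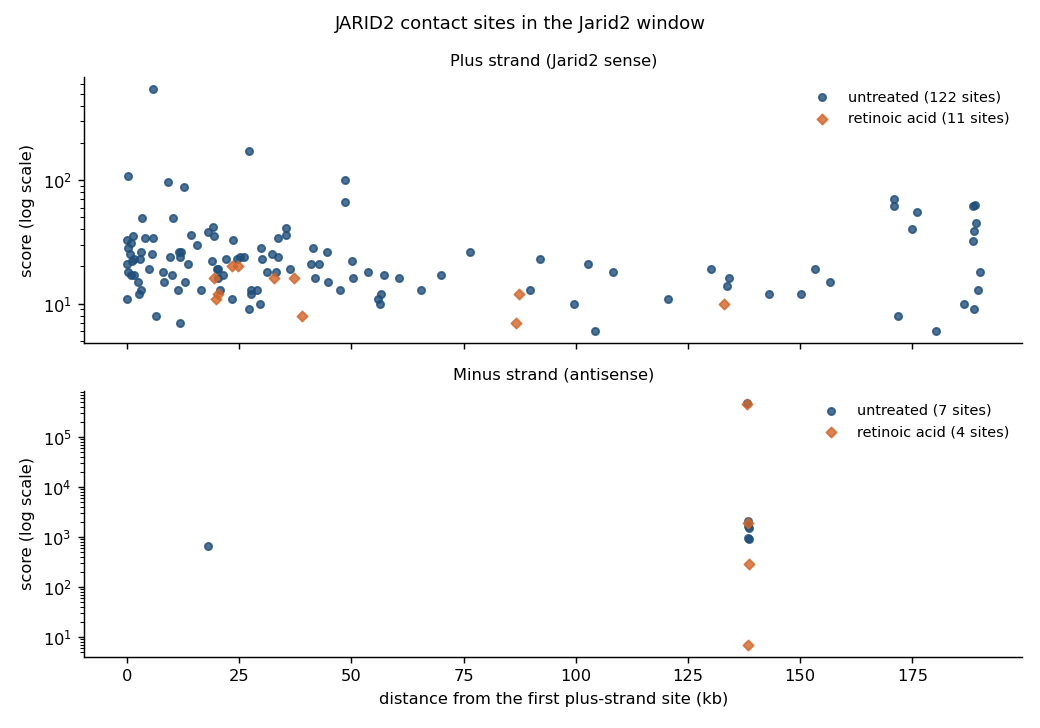
Score of every site in the window (log scale) against its distance in kb from the first plus-strand site, with the plus strand in the upper panel and the minus strand in the lower, circles for untreated and diamonds for retinoic acid. The 122 untreated sense sites crowd toward the left, all 11 treated sense sites score 20 or less, and the minus-strand cluster stands at 138 kb.

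The fall in sense-strand sites was larger than that of the list as a whole. Whole lists differed by a ratio of 4.37, untreated over treated, and the Jarid2 plus strand by 11.1. As a share of its list, the Jarid2 plus strand went from 0.522% (0.434 to 0.623) to 0.206% (0.103 to 0.368). At an unchanged share of the shorter treated list, 27.9 sites would lie there, against the 11 listed. All 674 windows with at least 10 sites were compared between lists by Fisher's exact test (two-sided, Benjamini-Hochberg adjusted). For the Jarid2 plus strand the log2 odds ratio, treated over untreated, was -1.35 (interval -2.39 to -0.46, Fisher exact adjusted p = 0.0399). The test called 3.26% of the 674 windows in all, 1.19% for a smaller and 2.08% for a larger share after retinoic acid. The median log2 odds ratio over the tested windows was -0.33 (interquartile range -1.33 to 0.39), so the Jarid2 value lay just below the lower quartile. This call was lost under 4 of 7 other settings, with Fisher exact adjusted p from 0.0675 to 0.194. When sites up to 50 bases apart were joined, 108 untreated sites remained and the adjusted p was 0.194. The test compares 2 pooled lists and treats sites of 1 transcript as independent. The lists also differed in make-up, with scores of at least 100 at 8.09% of untreated and 20.3% of treated sites. Fewer transcripts, less contact per transcript and a difference between the lists in read depth or site calling cannot be told apart here.

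**Figure D2:**
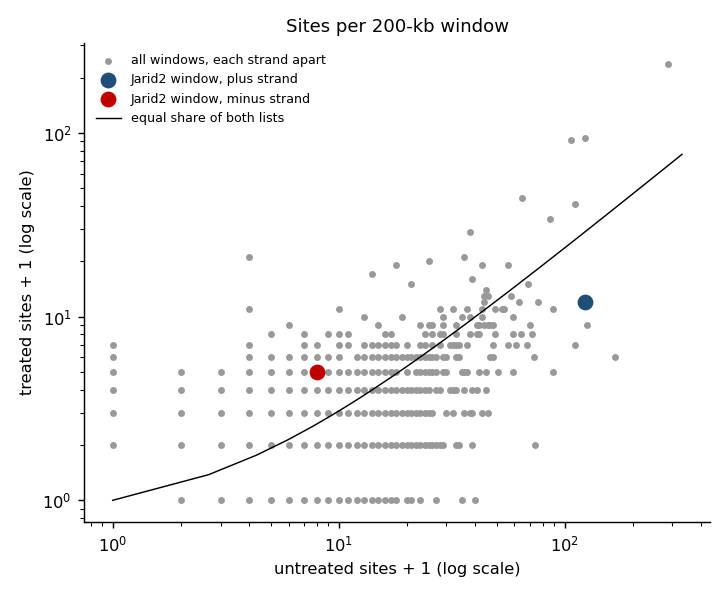
Treated against untreated sites per 200-kb window, each plus 1 and on log scales, each grey point being one or more windows of a single strand, with the line of equal share in both lists. The Jarid2 plus strand (122 and 11 sites) lies below the line and the Jarid2 minus strand (7 and 4 sites) above it.

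Windows with similar counts were taken as the 3 nearest in log2(sites + 1) over the 2 lists. They were the minus strand of chromosome 19 from 4620000 to 4820000, with 125 untreated and 8 treated sites, at a distance of 0.42. Next came the minus strand of chromosome 1 from 134820000 to 135020000 with 88 and 10 sites, at 0.48, and chromosome 2, plus strand, from 51820000 to 52020000 with 75 and 11, at 0.69. The likeness rests on a pair of counts per window. Log2 odds ratios of these windows were -1.84, -1.01 and -0.64 (Fisher exact adjusted p = 0.00235, 0.378 and 0.712), against -1.35 for the Jarid2 plus strand. These values follow from the counts by which the windows were chosen. A smaller treated share was thus not particular to Jarid2. The median scores of the 3 windows in the untreated list were 17, 22.5 and 19, close to the 21 of the Jarid2 plus strand. In the treated list they were 31.5, 20 and 23, all above the 12 of Jarid2.

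Untreated sense sites were densest at the start of the block and thinned out along it. The first 20 kb of the window, of which the first 6.79 kb lie before any site, held 38 sites, and the next bins of 20 kb held 29, 17 and 8. The 5 bins from 80 to 180 kb held 3, 4, 2, 4 and 5. The last 20 kb rose again to 12, of which 8 lay within 1.48 kb, from 45015323 to 45016803. Within 2 kb of the first site there were 13, from 44826790 to 44828317. The median untreated site started 28.3 kb after the first site of a 190-kb block, and the median distance between neighbouring starts was 599 bases, from 22 bases to 14.2 kb.

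**Figure D3:**
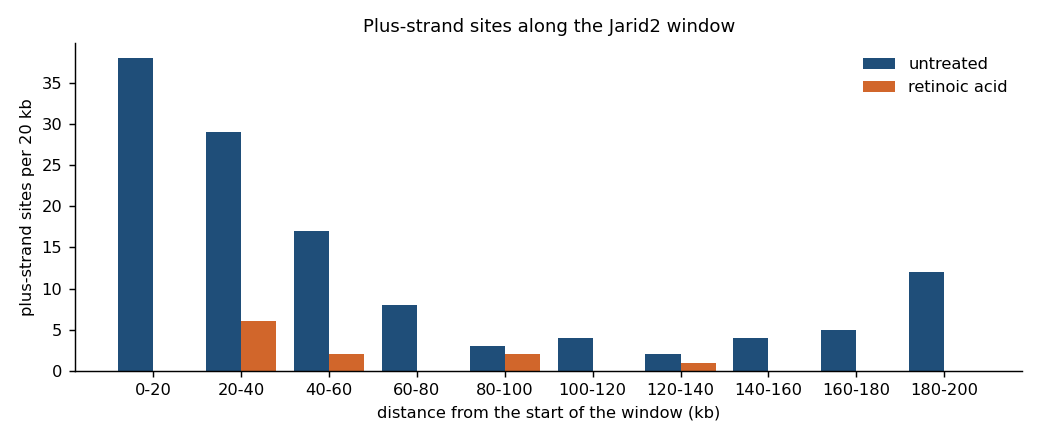
Number of plus-strand sites in each 20-kb bin of the window, by distance from its start, with a bar per list. Untreated sites fall from 38 in the first bin to 2 in the seventh and rise to 12 in the last, and treated sites are listed in 4 of the bins.

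Treated sense sites occupied a narrower part of the block. No treated site lay before 44846243, where 45 of the 122 untreated sites were listed, nor after 44959750, where 21 untreated sites were listed. From the first site shared by the lists to 44865764 there were 28 untreated and 8 treated sites, and after that 49 untreated and 3 treated. The 3 late ones lay from 44913570 to 44913577, from 44914125 to 44914133 and from 44959728 to 44959750. The median treated site started 32.8 kb after the first untreated site, close to the untreated median, so both lists had their middle in the same part of the block. With 11 treated sites, an absence at either end of the block is limited by their number, and no difference in position was tested.

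Sense-strand scores were modest in the untreated list and low in the treated list. Untreated sites had a median score of 21 (interquartile range 14.2 to 30.8), against 17 for the whole list, and 75 of 122 scored above that list median. Treated sites had a median of 12 (10.5 to 16), against 23 for their list, and 0 of 11 scored above it. Only 4 untreated sense sites (3.28%) scored at least 100, against 8.09% of the untreated list, and 0 of 11 treated ones did, against 20.3% of the treated list. Summed over the strand, the score was 3792 untreated and 148 treated, a ratio of 25.6 where the whole lists differed by 1.40. The whole-list sums are no like baseline, since they include far higher scores, with 7.31% and 9.53% of them in 1 site each. Scores under 100 were carried by 118 of 122 untreated and all 11 treated sense sites, against 21489 and 4262 sites in the lists. The sense-strand sums came from 1947 and 194 covered bases and were 0.0576% and 0.00315% of all score in their lists. The median site length was 12.5 bases untreated and 15 treated.

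The highest-scored untreated sense site, from 44832700 to 44832709, had a score of 545 and ranked 708 of 23380. It lay 5.91 kb after the first site, in a stretch without treated sites, and the nearest treated site on that strand was 13.5 kb away. The site from 44854060 to 44854090 followed with 172, and those from 44826947 to 44826957 and from 44875307 to 44875313 with 109 and 101. Below 100 came 96 at 44835975, 88 at 44839476, 71 at 44997625, 66 at 44875333, 63 at 45015734, and 62 at both 44997603 and 45015380. These 11 sites (the tenth place was tied) were spread over the block, and 4 of them started 171 to 189 kb after the first site. None of the 11 overlapped a treated site. Over the whole untreated list 1468 of 23380 sites (6.28%) did, of which 642 were among the 21489 scored under 100. The other shared sites were among the 1891 scored at least 100, where sharing was thus more common. The first untreated site, from 44826790 to 44826799, scored 21, and the last, from 45016794 to 45016803, scored 18.

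All 11 treated sense sites scored from 7 to 20. The highest were a pair with a score of 20, from 44850210 to 44850220 and from 44851601 to 44851624, followed by sites of 16 from 44846243 to 44846257, from 44859547 to 44859578 and from 44863920 to 44863938. Scores of 12 were listed from 44847068 to 44847079 and from 44914125 to 44914133, of 11 from 44846703 to 44846734, of 10 from 44959728 to 44959750, of 8 from 44865756 to 44865764, and of 7 from 44913570 to 44913577. The best of them ranked 2961 of 5348 in the treated list.

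Few sense sites were at the same bases in both lists, and within wide intervals their shares were not set apart from those of like-scored sites. Sites with 1 base or more in common on the same strand were counted as shared. Of the treated sense sites 2 of 11 (18.2%, 2.28 to 51.8) were shared. Among all treated sites the share was 6.37% (5.36 to 7.52) at scores of 10 to 19 and 10.6% (9.44 to 11.8) at 12 to 35. It was 16.1% (15.0 to 17.2) at scores under 100 and 27.3% over the whole treated list. Of the untreated sense sites 2 of 122 (1.64%, 0.199 to 5.80) were shared. Among all untreated sites the share was 1.10% (0.921 to 1.31) at scores of 10 to 19 and 1.89% (1.67 to 2.14) at 12 to 35. It was 2.99% (2.76 to 3.22) at scores under 100 and 6.28% over that list. With 2 shared sites in each list, the intervals of the Jarid2 shares are wide and hold each of these score-limited shares. The shared pair nearer the start ran from 44846235 to 44846247 untreated and from 44846243 to 44846257 treated, with 5 bases in common and scores of 35 and 16. The other ran from 44847067 to 44847077 and from 44847068 to 44847079, with 10 bases in common and scores of 19 and 12. Their score ratios, 2.19 and 1.58, lay above the upper quartile of the 576 overlapping pairs scored under 100 in both lists (median 1.03, interquartile range 0.656 to 1.56). Over all 1514 overlapping pairs the median was 1.30 (interquartile range 0.762 to 2.10). Near misses were few. The treated site at 44850210 lay 36 bases from an untreated site scored 11, those at 44846703 and 44851601 lay 149 and 168 bases from one, and the remaining 6 unshared treated sites lay 442 to 3090 bases away.

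The names of the sites gave a further view of the block. Each site name holds a pair of numbers, taken here as a read group and the place of the site in it. In both lists the group numbers rose with position on every strand of every chromosome. No source used here says what a group is or why some numbers carry no listed site. The highest number was 247324 untreated and 221592 treated, a ratio of 1.12, far nearer to 1 than the ratio of sites. Between the plus-strand sites that flank the window, which lay at nearly the same positions in both lists, 646 numbers passed in the untreated list and 370 in the treated list, a ratio of 1.75. On the whole plus strand of chromosome 13 the ratio was 1.23. From the first shared site to the last treated one and its nearest untreated neighbour, over 114 kb, the numbers rose by 304 untreated and 162 treated, a ratio of 1.88, while sites there numbered 57 and 11, a ratio of 5.18. Between the 2 shared sites, 0.832 kb apart, they rose by 5 and 6.

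Between the sites that flank the window, 114 of 646 numbers (17.6%) untreated and 11 of 370 (2.97%) treated carried a listed site, all within the Jarid2 window. Over the whole lists 8.68% and 2.12% did, and on the plus strand of chromosome 13 9.45% and 2.43%. The share between the flanking sites was thus above that of the chromosome strand in the untreated list and close to it in the treated list. Counted from the first to the last Jarid2 sense site, it was 21.0% (114 of 542) untreated and 6.75% (11 of 163) treated. Both values lay above that of the strand, but those bounds are set by the sites themselves. The flanking sites enclose a stretch far longer than the window, and no test was made on these numbers.

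**Figure D4:**
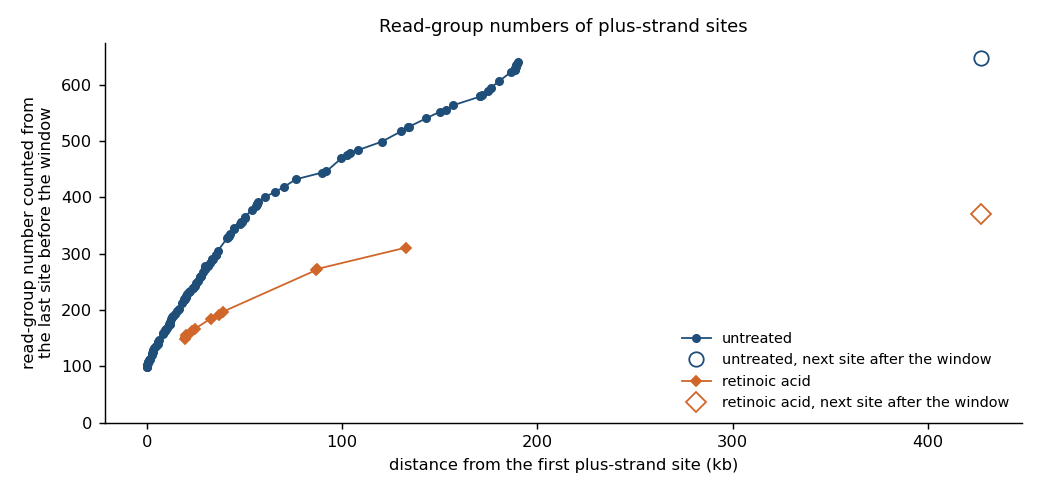
Read-group number of each plus-strand site, counted from the last site before the window, against distance in kb from the first plus-strand site, with open symbols for the next site after the window. Untreated numbers climb steeply over the first 50 kb, and 646 numbers lie between the last site before the window and the next one after it, against 370 in the treated list.

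The antisense strand presented a different picture, with few sites, very high scores and summed scores that differed little between the lists. All but 1 of its sites lay in a cluster spanning 0.415 kb, from 44.964954 to 44.965368 Mb, which was 138 kb after the first sense site. The cluster held 6 untreated and 4 treated sites. Summed scores were 487790 and 450613, a ratio of 1.08, or 7.41% and 9.58% of all score in the lists. Of all score on the minus strand of chromosome 13, the cluster carried 84.5% untreated and 90.8% treated. Nearly all of it, 98.5% and 99.5%, came from 1 site in each list. What transcript these reads come from was not determined, since no mm9 annotation or sequence was used.

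That site was the highest-scored of the whole list in both conditions. It ran from 44.964954 to 44.965090 Mb with a score of 480704 untreated, and from 44.964956 to 44.964993 Mb with a score of 448416 treated. The ratio of the scores was 1.07, against a median of 1.45 (interquartile range 0.946 to 2.21) over 274 overlapping pairs scored at least 1000 in both lists. Each exceeded the next score of its list, by 1.84 and 1.86 times. The untreated site, 137 bases long, was also the longest of its list, in which the next was 108. The treated site was 38 bases long, all of them within the untreated one, and ranked 66 by length.

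The rest of the cluster was weaker and less alike. Untreated sites from 44.965152 to 44.965161 Mb and from 44.965172 to 44.965175 Mb scored 1633 and 2102, and a single treated site from 44.965144 to 44.965174 Mb with a score of 1903 overlapped both. The untreated sites from 44.965190 to 44.965226 Mb (score 953), from 44.965261 to 44.965284 Mb (1491) and from 44.965363 to 44.965368 Mb (907) overlapped no treated site. The treated sites from 44.965231 to 44.965254 Mb (score 7) and from 44.965310 to 44.965327 Mb (287) lay in the gaps between them, 5 and 26 bases from the nearest untreated site. Without the highest-scored site, the summed scores of the cluster were 7086 and 2197, a ratio of 3.23. By sites, 3 of 6 untreated and 2 of 4 treated sites of the cluster were shared. Over the whole lists 6.28% and 27.3% were, but among sites scored under 100 only 2.99% and 16.1%. Sites of higher score, like most of the cluster, were thus shared more often than the lists as a whole. No excess of sharing is read from these counts.

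**Figure D5:**
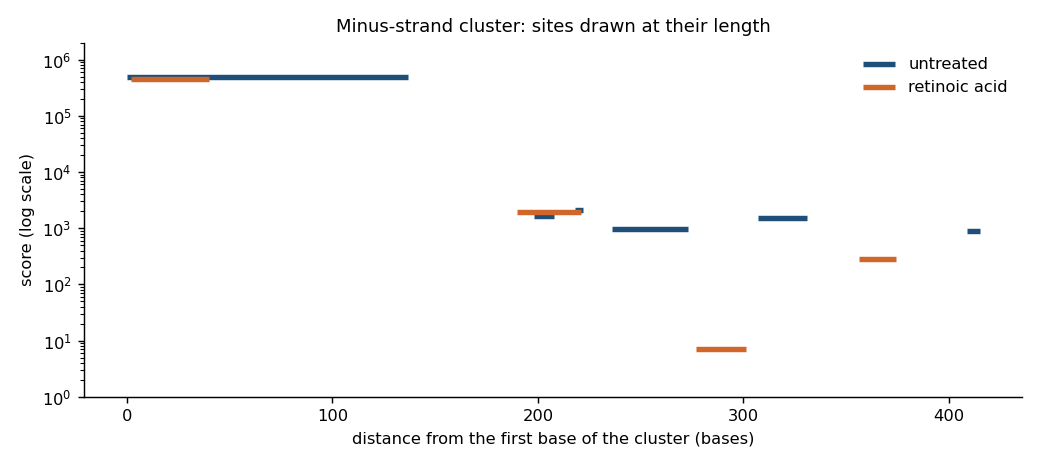
Sites of the minus-strand cluster drawn as bars at their length, by distance in bases from its first base, with the score on a log scale. The leading site stands at 480704 untreated and 448416 treated, and the other sites lie from 7 to 2102.

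One more antisense site was listed, from 44.844957 to 44.844971 Mb in untreated cells, with a score of 661 and rank 628. It lay 120 kb from the cluster and had no treated counterpart. Read-group numbers on the antisense strand ran over 5 in the untreated list, from that site to the end of the cluster, of which 4 carried a site, and over the 3 of the cluster in the treated list. The sense strand spanned 542 over the block. By sites, the antisense strand held 0.0299% (0.0120 to 0.0617) of the untreated list and 0.0748% (0.0204 to 0.191) of the treated list. The log2 odds ratio was 1.32 (interval -0.90 to 3.30, Fisher exact adjusted p = 0.650), which does not pass the threshold, and it changed sign when only sites scored at least 100 were kept (-0.42).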

How the data were processed

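JARID2 PAR-CLIP sites of 6 libraries were read from 2 lists in which the authors deposited, for each condition, the sites of 3 libraries pooled. The values are the score the authors gave each site, as deposited, with no stated scale. Per the submitters' processing notes, the work involved Bowtie and the mm9 build. No source used here gives the role of Bowtie or the program that called sites. All sites were kept, and positions are counted from 1. The window, its strands and the test were chosen with earlier results of these data known. Windows of 200 kb started at position 20000 of each chromosome, so that the Jarid2 window was one of them, and those with at least 10 sites over both lists entered the Fisher exact test (Benjamini-Hochberg, threshold 0.05). Log2 odds ratios are treated over untreated. The rule for naming sites took the first and last, the 10 highest-scored untreated, all treated and all shared sense sites, and every antisense site. Polycomb partner and stem cell marker genes were to be described only with mm9 positions, which were not in the sources used here, so they were not analysed here. Alternatives were score minimums, site minimums, joined sites, regions joined across 10 kb, leaving out mitochondrial and unplaced sequence, and other overlap rules. Setting the treated list against as many of the highest-scored untreated sites was chosen after seeing the data. The window test was tried on simulated counts. The overlap count was compared with a direct count for sites drawn from the untreated list. Python 3.11.15, numpy 2.4.6, pandas 2.3.3, scipy 1.17.1 and matplotlib 3.10.9 were used.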

Additional observations from a re-analysis of the deposited data

How the results depend on the processing

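The smaller share of the Jarid2 sense strand kept its direction under all 7 settings that could be fitted, and its call under 3. The log2 odds ratio was -1.61 with scores of at least 10, -1.35 with at least 20 sites per window and -1.45 against as many of the highest-scored untreated sites as the treated list holds (30 and 11 sites), with Fisher exact adjusted p of 0.0137, 0.0172 and 0.0450. The call was lost at -1.35 with a minimum of 5 sites, where 1511 windows were tested, at -1.30 without the mitochondrial chromosome and unplaced contigs, at -1.14 with sites up to 50 bases apart joined, and at -1.41 for the region joined across 10 kb (93 and 8 sites), with adjusted p of 0.0773, 0.0675, 0.194 and 0.103. At scores of at least 100 it held too few sites to be tested. The share of windows called was 3.12% (19 of 609), 7.79% (19 of 244) and 10.4% (17 of 164) in the settings that kept the call. In those that lost it, the share of windows or regions was 1.26% (19 of 1511), 2.98% (20 of 671), 2.59% (16 of 618) and 3.68% (18 of 489). At scores of at least 100, 0 of 30 were called.

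With a minimum of 20 sites, and with sites up to 50 bases apart joined, the antisense strand could not be tested. Its log2 odds ratio was not called under any other setting. It changed sign at scores of at least 100 (-0.42) and against the highest-scored untreated sites (-0.81). The cause was not tested. Antisense sharing of 42.9% untreated and 50% treated became 0% for both with an overlap of 50% of both sites, and 85.7% and 100% with a distance of up to 100 bases. The score ratio of the cluster, 1.08, became 3.23 without its leading site. Sense-strand sharing stayed within its counting interval under all 4 overlap settings, at 9.09% to 27.3% of treated and 0.820% to 3.28% of untreated sites. No paired analysis was possible because each list pools its 3 libraries. For the same reason no library could be left out.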
